A study of Mus musculus with 10 samples.

Results

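Mitochondria make ATP with a chain of protein complexes in the inner membrane, and most of the subunits are encoded in the nucleus. This account covers 94 nuclear genes of that machinery, of 24411 genes listed, in mouse morulae after injection of an antisense oligonucleotide (ASO) against Mettl3. The genes were taken by symbol: every gene whose name begins with Ndufa, Ndufb, Ndufc, Ndufs, Ndufv, Uqcr or Atp5, the COX families numbered 4 to 8, Sdha to Sdhd, Cyc1 and Cycs. The name pattern uses no measured value, but the set was chosen with earlier results of these data known. They comprise 38 complex I genes, 4 of complex II, 9 of complex III, 17 of complex IV, 15 of complex V, and Cycs, the gene of the mobile carrier cytochrome c. Set apart were 7 Ndufaf genes, which encode assembly factors of complex I and are absent from the finished complex, and 3 other factors (Cox7a2l, Atp5s and Atp5sl) that the name pattern also takes in.

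Complex I (NADH dehydrogenase) and complex II (succinate dehydrogenase) pass electrons to ubiquinone, complex III passes them on to cytochrome c, and complex IV (cytochrome c oxidase) passes them to oxygen. Complexes I, III and IV pump protons across the membrane, and complex V (ATP synthase) uses their return flow to make ATP. Cleavage-stage embryos inherit their mitochondria from the oocyte and respire pyruvate, and oxygen use rises towards the blastocyst. The protein made from Mettl3 places N6-methyladenosine, a methyl mark, on messenger RNA.

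The study compared 2 groups of 5 libraries, each library a pool of 10 morulae, the stage before the blastocyst. Oocytes of superovulated mice were fertilized in vitro, zygotes were injected at 3 to 6 h after insemination, and the embryos were grown to 72 h. ASO-Control embryos received an oligonucleotide without a target and Mettl3-ASO embryos one against Mettl3, so both groups were injected and neither carries a deletion. The labels name the ICR strain for replicates 1 and 2 of both groups and mark replicates 3 to 5 of both as batch 2; replicates 1 and 2 have no batch label and are called untagged here. The labels do not say which libraries came from separate fertilizations, so the p-values cover only the spread among these 10, and part of it may be technical.

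Expected counts per library, the estimated number of reads assigned to genes, summed to between 9905830 and 13530284 for replicates 1 and 2 and between 21412857 and 32327283 for batch 2. The 94 genes took 2.39% to 2.69% of them in ASO-Control and 2.22% to 2.44% in Mettl3-ASO. Mettl3 was measured at 6.58 to 12.7 FPKM (fragments scaled by transcript length and library size) in ASO-Control and at 0, 0, 0, 0.04 and 0.03 FPKM in Mettl3-ASO, with 1681 counts over the 5 controls against 3 (log2 fold change -8.72 ± 0.45, SE, adjusted p = 6.6e-08). Of 7 embryo markers, Pou5f1, Nanog, Cdh1, Tead4, Tfap2c and Dppa3 stood at 9.76 FPKM or more in every library, and Sox2 at 2.49 FPKM or less. Their sum of 16344 to 26125 FPKM in ASO-Control and 23492 to 44538 FPKM in Mettl3-ASO was nearly all Dppa3, which was higher by the test, as was Nanog, while Pou5f1 was lower. Of 8 cumulus and granulosa markers, Lhcgr, Amh and Has2 were listed at 0 everywhere and the sum was at most 0.76 FPKM, and 5 sperm markers summed to at most 3.04 FPKM. Of 4 blood markers Hbb-bs and Adgre1 were listed at 0, while Hba-a1 gave 28.5 to 62.4 FPKM in ASO-Control and 24.3 to 57.5 FPKM in Mettl3-ASO.

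Markers of developmental stage moved with the groups. The 7 trophectoderm markers summed to 369 to 1143 FPKM in ASO-Control and 96.9 to 368 FPKM in Mettl3-ASO. By the test 6 of 7 were lower, against 24.0% of all tested genes. The 7 markers of the 2-cell stage summed to 1.36 to 13.5 FPKM in ASO-Control and 659 to 1916 FPKM in Mettl3-ASO. By the test 7 of 7 were higher, against 25.4% of all tested genes. Tcstv3 alone held 154 to 1574 FPKM in Mettl3-ASO. Ranges of Zscan4c, Zscan4d and Zscan4f overlapped, with lowest Mettl3-ASO levels of 0.31, 0.31 and 0.28 FPKM and highest control levels of 0.51, 0.64 and 1.29 FPKM. Mettl3-ASO replicate 1 stood nearest to the controls on both sums, at 368 FPKM for trophectoderm (the other 4 libraries: 96.9 to 124 FPKM) and 659 FPKM for the 2-cell stage (the others: 863 to 1916 FPKM). The part of these shifts in the values that follow was not tested.

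Short DNA motifs in front of respiratory chain genes are part of the textbook account of how the nucleus sets their transcription, so the sequences of the genes that moved are shown before their values. RefSeq windows of 300 bases around the start site (250 before and 50 after, build GRCm38.p6) were at hand for 77 of the 94 genes. The palindrome bound by NRF1 (nuclear respiratory factor), the 10 letters in capitals in the lines below, lay in the windows of 7 of them (9.09%), against 2.57% of the 7670 tested genes with a window and 0.97% of all 32851 windows. The lines give the 30 bases around it on the gene's strand; Atp5g2, Cox6a1 and Uqcrc1 fell in Mettl3-ASO, Atp5k, Ndufaf4 and Ndufaf5 rose, and Ndufa11 was not called.
Atp5g2, chr15:102671070-102671099, minus strand: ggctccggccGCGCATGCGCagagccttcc
Cox6a1, chr5:115349101-115349130, minus strand: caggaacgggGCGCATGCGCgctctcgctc
Uqcrc1, chr9:108936668-108936697, plus strand: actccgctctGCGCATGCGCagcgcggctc
Atp5k, chr5:108434430-108434459, minus strand: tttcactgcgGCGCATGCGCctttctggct
Ndufaf4, chr4:24897960-24897989, plus strand: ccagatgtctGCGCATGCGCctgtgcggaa
Ndufaf5, chr2:140170652-140170681, plus strand: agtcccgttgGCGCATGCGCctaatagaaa
Ndufa11, chr17:56717692-56717721, plus strand: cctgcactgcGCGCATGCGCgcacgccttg
The same palindrome was thus in the windows of 3 genes that fell and 3 that rose. Its first base lay 42 bases before the start in Atp5g2, 162 in Cox6a1, 50 in Atp5k, 113 in Ndufaf4 and 60 in Ndufa11, and 31 and 17 bases into the transcript in Uqcrc1 and Ndufaf5.

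The ETS core CCGGAAG, bound by the NRF2/GABP factor, was found on either strand in 17 of 77 windows (22.1%), against 23.2% of the tested genes with a window and 8.86% of all windows. Among called genes it lay with Atp5h, Cox6a1, Ndufb7, Ndufs3 and Ndufs8, which fell, and with Atp5j, Atp5k, Ndufaf1 and Uqcrh, which rose. AAGATGGCG, the YY1 motif, was found in 8 windows (10.4%), against 4.07% and 1.4%. Its bearers were Ndufa9, Ndufs4 and Ndufs7, which fell, Atp5j, which rose, and 4 genes that were not called (Atp5j2, Atp5sl, Ndufc1 and Ndufs6). Both strands were searched for each motif, and no matches overlapped in these genes. The YY1 letters hold an ATG, and in all its bearers but Atp5j the match lay after a RefSeq start, for Atp5sl after 1 of 2 starts. Examples of the ETS core follow for a pair of genes that fell and a pair that rose, and CTTCCGG is the same core on the other strand.
Atp5h, chr11:115419939-115419968, minus strand: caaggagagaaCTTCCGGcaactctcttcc
Ndufs3, chr2:90904730-90904759, minus strand: cccgcgtccgcCCGGAAGaagagtcactgc
Uqcrh, chr4:116075062-116075091, minus strand: agtatgccgcaCTTCCGGccaggtcgccgg
Ndufaf1, chr2:119662834-119662863, minus strand: cgggaccacaaCCGGAAGcgtggcgaaccg
For the 2 complex I assembly genes with the largest rises, the whole 150 bases before the RefSeq start are given, again with the motif in capitals, the NRF1 palindrome for Ndufaf4 and the ETS core for Ndufaf1.
Ndufaf4, chr4:24897933-24898082, plus strand: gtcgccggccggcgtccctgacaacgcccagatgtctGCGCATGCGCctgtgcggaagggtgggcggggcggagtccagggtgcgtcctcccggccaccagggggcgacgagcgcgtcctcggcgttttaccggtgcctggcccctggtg
Ndufaf1, chr2:119662835-119662984, minus strand: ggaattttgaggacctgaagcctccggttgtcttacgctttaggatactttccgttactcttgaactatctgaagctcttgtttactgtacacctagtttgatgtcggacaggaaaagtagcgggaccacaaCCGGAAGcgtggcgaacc
The windows describe letters only; no binding was measured.

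Control morulae held these mRNAs at very unequal levels within a complex. On the FPKM scale, complex I genes reached up to Ndufa4 (1592 FPKM), a small subunit later placed with complex IV. The core subunits Ndufv1 (35.4 FPKM) and Ndufs1 (35.8 FPKM) were scarce. Several other core subunits stood higher, with Ndufs8 at 408 FPKM, Ndufs3 at 303 FPKM, Ndufv2 at 296 FPKM and Ndufs7 at 244 FPKM. Complex II ran from Sdha (18.8 FPKM), the subunit that oxidizes succinate, to Sdhb (337 FPKM), its iron-sulfur partner. In complex III the range was Uqcrfs1 (127 FPKM), the Rieske iron-sulfur protein, to Uqcrb (3064 FPKM). In complex V it was Atp5a1 (245 FPKM), the alpha subunit, to Atp5j (3272 FPKM), coupling factor 6 of the stalk. Complex IV held the widest range, from Cox8c (1.57 FPKM), a testis-type isoform, to Cox6c (2660 FPKM). Cytochrome c itself (Cycs) stood at 308 FPKM.

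**Figure D1:**
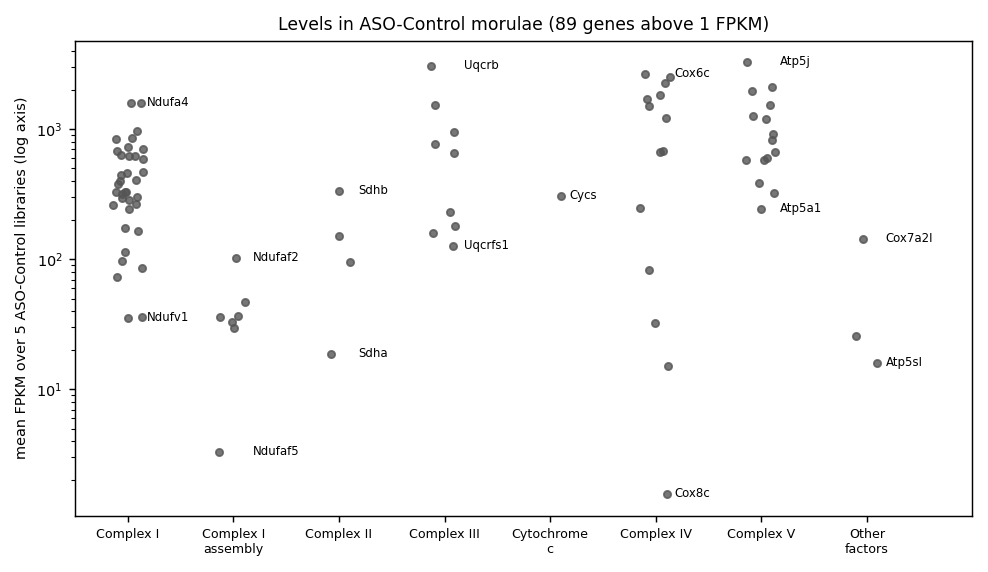
Mean level in 5 ASO-Control libraries (FPKM, log axis) of 89 genes above 1 FPKM, by complex, with the highest and lowest gene plotted in each group named. Each point is 1 gene; horizontal spread within a column has no meaning. Levels run from 1.57 FPKM (Cox8c) to 3272 FPKM (Atp5j).

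Of the 94 genes, 90 had a mean of at least 1 FPKM and were tested, with edgeR's quasi-likelihood test over 9522 genes and Benjamini-Hochberg adjustment over all of them. In Mettl3-ASO 33 of the 90 were lower (36.7%) and 12 were higher (13.3%) at an adjusted p under 0.05, and 45 were not called. Over all tested genes the same rule called 24.0% lower and 25.4% higher, 49.4% in all, so the called share of the set (50%) was near that of all genes while its split ran toward lower. The median log2 fold change was -0.15, with -0.15 in batch 2 and -0.10 in the untagged libraries, against 0.01 over all tested genes. FPKM ranges of the groups lay apart downward for 18 genes, all called lower, and upward for 11, against 10.6% and 15% of all tested genes. Of those 11, 9 were called higher, and Ndufa1 and Cox7b2 were not called. In pooled embryos, fewer cells of a type and less RNA per cell cannot be told apart.

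Without Mettl3-ASO replicate 1 the counts were 30 lower and 13 higher, where 24.6% of all genes were lower and 25.8% higher. With the untagged libraries alone, 2 against 2, they were 1 and 1, where 2.47% of all genes were lower and 3.79% higher. All 45 called genes kept their sign there and in batch 2 alone, where 27 were lower and 12 higher (18.9% and 20.2% of all genes). No gene of the set was called for a response that differed between batches by edgeR's interaction test. It called 0 of 90 at an adjusted p under 0.05, against 0.0% of all tested genes. At an unadjusted p under 0.05 it gave 0 of 90, against 159 of 9522. With 2 untagged libraries in each group and no call over all tested genes, the test cannot show that the responses were equal. Summed over all 94 genes the FPKM level hardly moved, at 57773 ± 3894 FPKM in ASO-Control and 57088 ± 3733 FPKM in Mettl3-ASO (SD, n = 5, ratio 0.988). Their share of the expected counts was 2.39% to 2.69% in ASO-Control and 2.22% to 2.44% in Mettl3-ASO, with overlapping ranges.

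Of the 45 calls, 35 held when each library in turn was left out. The other 10, all of small changes, ended without some libraries, though each kept its sign. Cox5b ended without control replicates 1, 2, 3 or 5 or Mettl3-ASO replicates 1, 2 or 4 (adjusted p up to 0.105). Uqcrb ended without control replicates 2, 3 or 5 or Mettl3-ASO replicates 1, 3, 4 or 5 (up to 0.102). For Cox5a the libraries were control replicates 2, 3 and 5 and Mettl3-ASO replicates 3 and 4 (up to 0.0934). These are genes of complexes III and IV. In complex I, Ndufs7 ended without control replicates 1, 3 or 4 or Mettl3-ASO replicates 2, 3 or 5 (up to 0.0834). Ndufa10 did so without control replicates 2 or 4 or Mettl3-ASO replicates 4 or 5 (up to 0.0700), and Ndufa8 without control replicates 3 or 5 or Mettl3-ASO replicates 4 or 5 (up to 0.0644). The rest belong to ATP synthase, with 1 rise of complex IV. Atp5f1 ended without control replicates 2, 3 or 5 or Mettl3-ASO replicates 1, 3 or 4 (up to 0.0874), and Atp5s without control replicates 1 or 5 or Mettl3-ASO replicates 1 or 4 (up to 0.0793). The rises of Atp5k ended without control replicates 2, 3 or 5 or Mettl3-ASO replicates 3, 4 or 5 (up to 0.0969), and of Cox7c without control replicates 2, 4 or 5 or Mettl3-ASO replicates 2 or 5 (up to 0.0726).

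**Figure D2:**
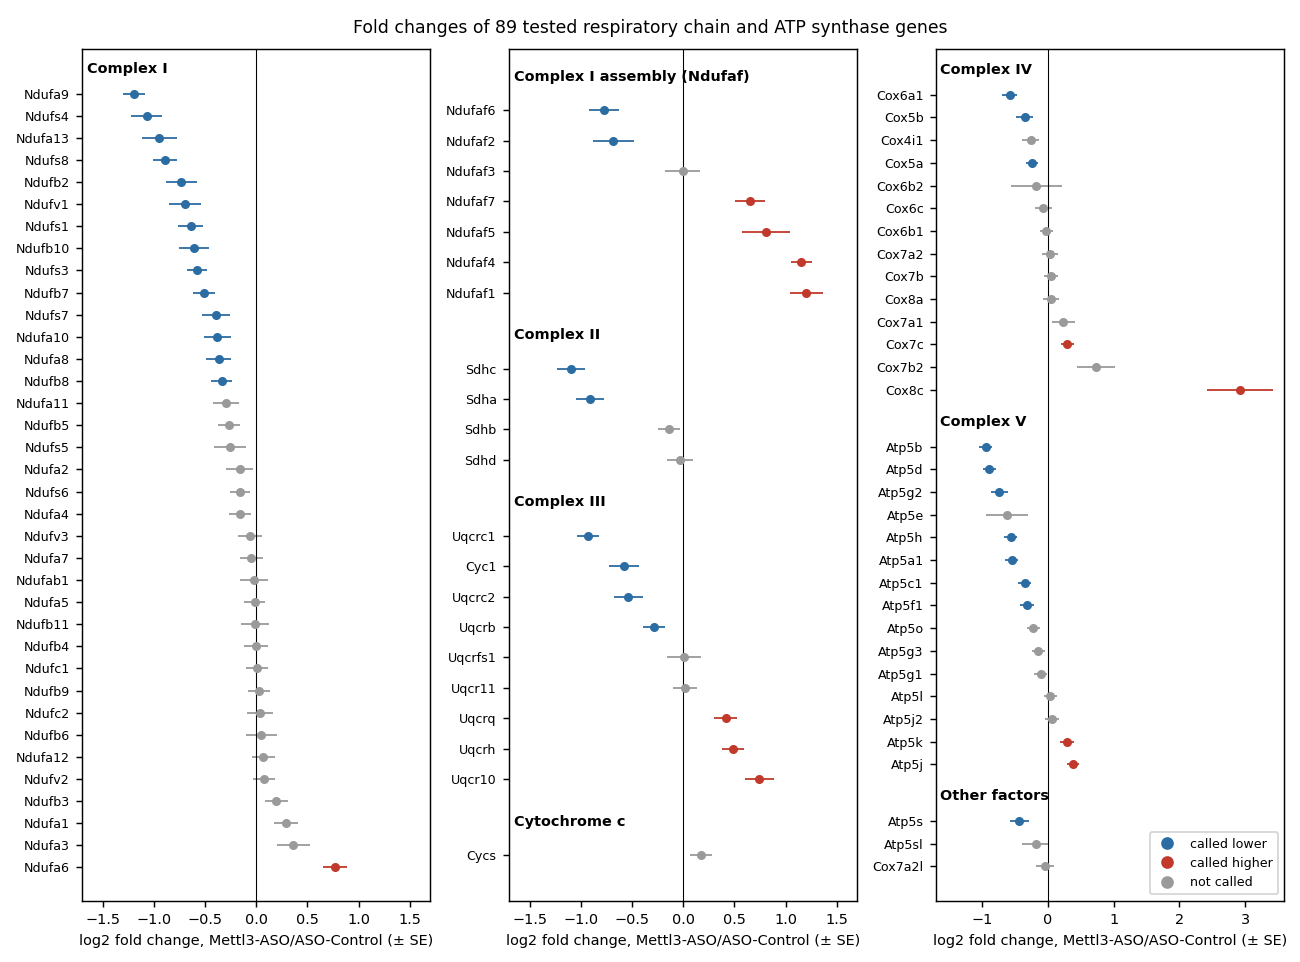
Log2 fold change of Mettl3-ASO over ASO-Control with its standard error for 89 tested genes, by complex; blue genes were called lower, red higher and grey not called. In complex I 14 genes are blue and 1 is red, and the Ndufaf panel has 2 blue and 4 red of 7; the right column has a wider axis for Cox8c at 2.92.

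In complex I the falls were most frequent, by share, in the Q module, where ubiquinone is reduced. Over the complex, 14 of 37 tested genes fell (37.8%) and 1, Ndufa6, rose (2.7%), against 24.0% and 25.4% of all tested genes. In the Q module 4 of 6 fell (Ndufa9, Ndufs8, Ndufs3 and Ndufs7). The call of Ndufs7 ended without some single libraries, as given above, and the value of Ndufs3 is uncertain. The N module, where NADH is oxidized, had 3 of 10 lower (Ndufs4, Ndufv1 and Ndufs1) and Ndufa6 higher, and the proton-pumping membrane arm 7 of 19 lower and none higher (12 not called). Summed FPKM of the 6 Q module genes was 1894 to 2283 FPKM in ASO-Control and 1294 to 1629 FPKM in Mettl3-ASO, ranges that do not overlap (ratio 0.722). The sum of all 38 complex I genes overlapped, at 15101 to 19081 FPKM in ASO-Control and 13680.1 to 17291 FPKM in Mettl3-ASO.

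Ndufa9 encodes an accessory subunit of the Q module that helps hold the 2 arms together. It measured 367, 429, 480.3, 450.4 and 496 FPKM in ASO-Control and 194, 198, 209, 208 and 186 FPKM in Mettl3-ASO, in the order of replicates 1 to 5 as for all genes below. Every Mettl3-ASO library lay under every control, and the spread among the 5 was small. The mean went from 445 ± 50.6 to 199 ± 9.79 FPKM (SD, n = 5 each), 2.29-fold lower, and the log2 fold change was -1.20 ± 0.107 (adjusted p = 4.39e-06), the largest fall of the set. Ndufs8, a core subunit that carries iron-sulfur clusters, gave 401, 371, 482, 369 and 417 FPKM in ASO-Control and 243, 177, 267, 221 and 217 FPKM in Mettl3-ASO. Again no library crossed over, with the highest Mettl3-ASO value in replicate 3, as among the controls; its log2 fold change was -0.89 ± 0.114 (adjusted p = 5.36e-05). The Q module also holds Ndufs3 (-0.58 ± 0.0997, adjusted p = 0.000467) and Ndufs7 (-0.39 ± 0.139, adjusted p = 0.0328), core subunits that both fell. Other annotated transcripts match 35.8% of the Ndufs3 transcript, which makes its value uncertain. Ndufa5, an accessory subunit of the module, was not called (-0.01 ± 0.102, adjusted p = 0.924).

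Ndufs4, an accessory subunit at the foot of the N module whose loss in mice gives a Leigh-like disease, measured 72.0, 81.2, 67.0, 62.6 and 83.5 FPKM in ASO-Control and 46.5, 31.8, 27.1, 38.5 and 37.4 FPKM in Mettl3-ASO. The 2 sets of libraries were separate, the nearest pair being 46.5 FPKM in Mettl3-ASO replicate 1 and 62.6 FPKM in ASO-Control replicate 4. Its log2 fold change was -1.07 ± 0.15 (adjusted p = 0.000109), or 2.10-fold lower. Ndufv1, which binds NADH, fell from 35.4 ± 8.72 to 23.4 ± 11.2 FPKM (-0.69 ± 0.158, adjusted p = 0.00304) with overlapping ranges, since replicate 1 of Mettl3-ASO held 42.9 FPKM. Ndufs1, the largest core subunit, fell from 35.8 ± 4.14 to 23.7 ± 2.93 FPKM (-0.64 ± 0.122, adjusted p = 0.000991). The remaining core subunit of this module, Ndufv2, was not called (0.08 ± 0.105, adjusted p = 0.559).

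Ndufa6, a small accessory subunit of the same arm, was the 1 complex I gene that rose. It measured 528, 424, 477, 409 and 488 FPKM in ASO-Control and 913, 602, 824, 851 and 906 FPKM in Mettl3-ASO. All Mettl3-ASO libraries exceeded all controls, with replicate 2 well under the other 4. The mean rose from 465 ± 48.7 to 819 ± 127 FPKM (SD, n = 5 each), 1.71-fold, with a log2 fold change of 0.77 ± 0.117 (adjusted p = 0.000188). Under other settings 2 or 3 complex I genes were called higher, the next being Ndufa1 (329 against 412 FPKM, adjusted p = 0.0504) and Ndufa3 (594 against 783 FPKM, adjusted p = 0.0754).

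Among the membrane arm genes that fell, log2 fold changes ran from -0.95 to -0.34. They were Ndufa13 (-0.95), also known as GRIM-19, Ndufb2 (-0.73), Ndufb10 (-0.61), Ndufb7 (-0.51), Ndufa10 (-0.38), Ndufa8 (-0.37) and Ndufb8 (-0.34), all accessory subunits. Antisense exons of Tssk6 cover 30% of the exon bases of Ndufa13, whose value is uncertain because no source used here says if reads were counted by strand. The value of Ndufb2 is also uncertain, since 24.4% of its transcript matches other annotated transcripts. Over the whole complex the 22 genes not called lay between -0.29 (Ndufa11) and 0.36 (Ndufa3) on the log2 scale. Ndufa4, the most abundant gene of the group, measured 1652, 1495, 1869.6, 1413 and 1531 FPKM in ASO-Control and 1422, 1413, 1554, 1358 and 1532 FPKM in Mettl3-ASO and was not called (-0.16 ± 0.108, adjusted p = 0.25). Its paralog Ndufa4l2, a hypoxia-response gene in other tissues, had 1 count in 1 library of each group and was not tested.

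Of the 7 Ndufaf genes, assembly factors of complex I, 4 rose and 2 fell (57.1% and 28.6%, against 25.4% and 24.0% of all tested genes). Ndufaf1 is part of the complex that builds the membrane arm. It measured 28.8, 21.5, 30.8, 35.1 and 31.7 FPKM in ASO-Control and 48.9, 61.7, 63.0, 80.7 and 96.3 FPKM in Mettl3-ASO. Ndufaf4, which works with Ndufaf3 on the early Q module, measured 34.4, 29.9, 38.02, 42.9 and 36.0 FPKM in ASO-Control and 71.9, 73.6, 86.1, 84.2 and 99.6 FPKM in Mettl3-ASO. Both were higher in every Mettl3-ASO library than in any control, and Ndufaf4 stood at over 71 FPKM in all 5. The log2 fold changes were 1.20 ± 0.161 (adjusted p = 7.85e-05) and 1.15 ± 0.105 (adjusted p = 4.89e-06), or 2.30-fold and 2.23-fold higher.

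Ndufaf7, an arginine methyltransferase, measured 32.4, 33.6, 37.8, 39.9 and 39.8 FPKM in ASO-Control and 42.2, 64.6, 64.4, 65.2 and 58.9 FPKM in Mettl3-ASO. Ndufaf5, which modifies Ndufs7, was scarce at 3.46, 3.92, 3.08, 2.67 and 3.27 FPKM in ASO-Control and 4.58, 5.51, 4.56, 5.87 and 8.89 FPKM in Mettl3-ASO. Neither pair of ranges overlapped; Mettl3-ASO replicate 1 was closest to the controls for Ndufaf7, and replicate 3 for Ndufaf5. Log2 fold changes were 0.65 ± 0.145 (adjusted p = 0.00253) and 0.81 ± 0.234 (adjusted p = 0.0122). Of the rest, Ndufaf6 fell (-0.78 ± 0.147, adjusted p = 0.000903), Ndufaf2 fell (-0.68 ± 0.201, adjusted p = 0.0132), and Ndufaf3 was not called (-0.01 ± 0.169, adjusted p = 0.982). An antisense gene, B230220B15Rik, covers 65.6% of the exon bases of Ndufaf2, which makes that value uncertain. Summed FPKM of the 7 genes overlapped between groups, at 251 to 333 FPKM in ASO-Control and 306 to 394 FPKM in Mettl3-ASO. The outcome turned with the unit, since the TPM sums narrowly did not overlap, at 268 to 331 TPM in ASO-Control and 332 to 394 TPM in Mettl3-ASO.

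Outside the name rule, 9 further complex I assembly genes were listed, with 1 lower and 2 higher. These are 11.1% and 22.2% of them, against 24.0% and 25.4% of all tested genes. Tmem126a rose from 62.5 ± 5.93 to 117 ± 26.5 FPKM (log2 fold change 0.85 ± 0.166, adjusted p = 0.00109). Tmem126b, a partner of Ndufaf1 in building the membrane arm, rose from 64.3 ± 12.4 to 111 ± 18.5 FPKM (log2 fold change 0.74 ± 0.13, adjusted p = 0.000515). Tmem186, a further member of that complex, fell from 2.39 ± 0.821 to 0.948 ± 0.353 FPKM (log2 fold change -1.39 ± 0.333, adjusted p = 0.00402). The other partners of Ndufaf1, Ecsit (log2 fold change -0.39) and Acad9 (-0.29), were not called, nor were Nubpl, Timmdc1, Foxred1 and Oxa1l.

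**Figure D3:**
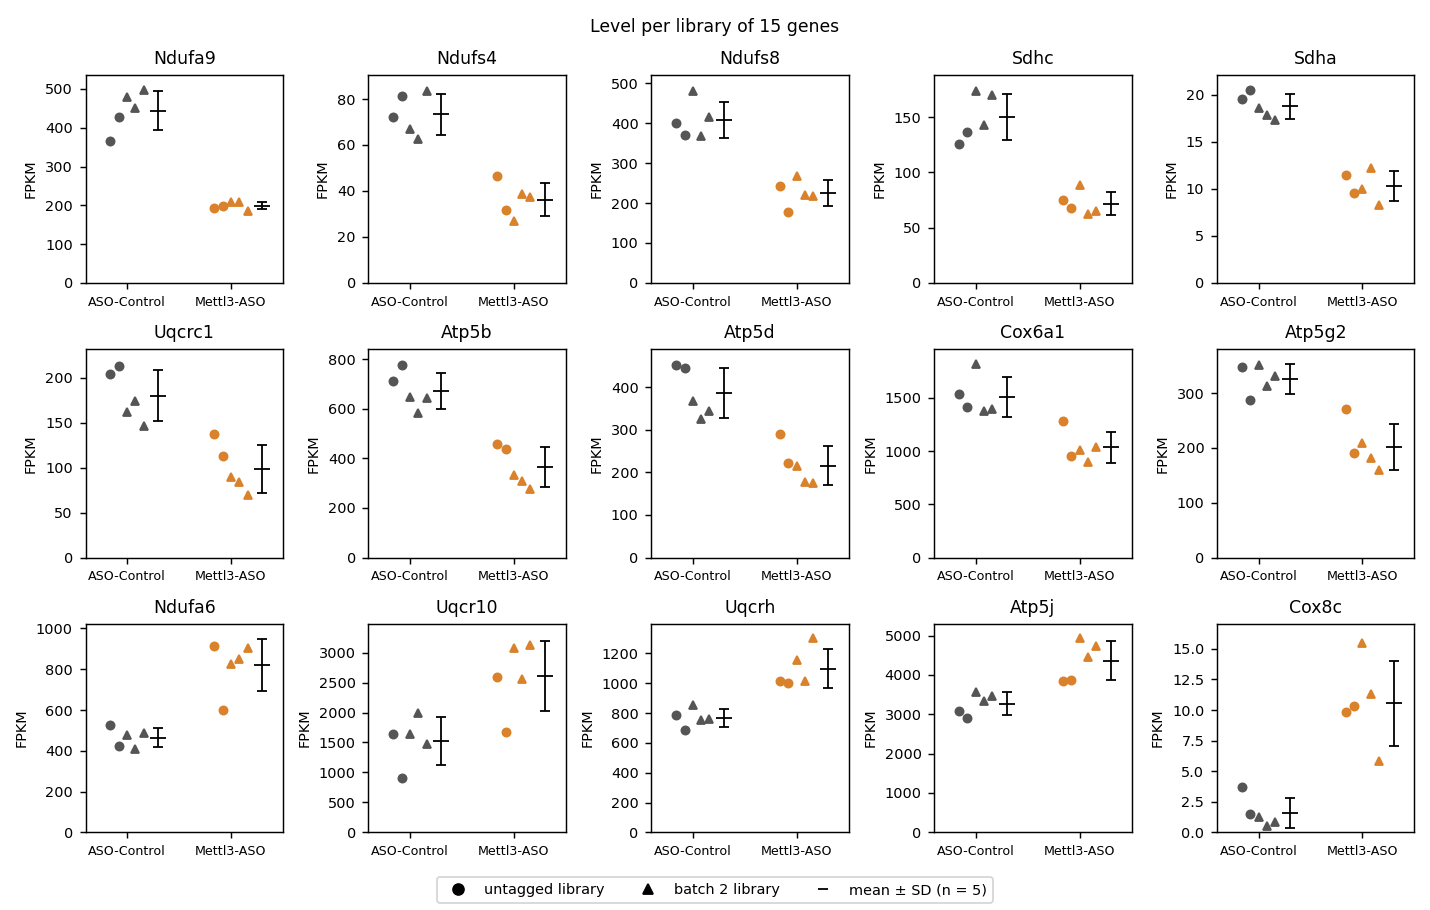
FPKM per library of 15 genes with the smallest p or a rise; circles are untagged libraries, triangles batch 2, grey ASO-Control and orange Mettl3-ASO, and bars give mean ± SD over 5 libraries (each vertical axis starts at 0 and has its own scale). The first 10 panels show falls, such as Ndufa9, and the last 5 show rises, where Uqcr10 overlaps between groups and the others do not.

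Complex II carried its falls in 2 of 4 genes (50%, against 24.0% of all tested genes). Sdhc is one of the membrane anchors that bind heme and ubiquinone. It measured 126, 137, 174, 143 and 170.2 FPKM in ASO-Control and 75.1, 67.6, 88.7, 62.7 and 65.0 FPKM in Mettl3-ASO. Sdha, the flavoprotein that oxidizes succinate and a citric acid cycle enzyme, measured 19.6, 20.5, 18.6, 17.8 and 17.3 FPKM in ASO-Control and 11.5, 9.61, 9.97, 12.2 and 8.27 FPKM in Mettl3-ASO. In both genes every Mettl3-ASO library was under every control. Log2 fold changes were -1.10 ± 0.137 (adjusted p = 4.52e-05) for Sdhc and -0.91 ± 0.135 (adjusted p = 0.000162) for Sdha, 2.14-fold and 1.88-fold lower. Sdhb, the iron-sulfur subunit and the most abundant of the 4, measured 244, 275, 413, 378 and 374 FPKM in ASO-Control and 298, 267, 346, 308 and 327 FPKM in Mettl3-ASO; it was not called (-0.14 ± 0.107, adjusted p = 0.288), and nor was Sdhd, the other anchor (-0.03 ± 0.128, adjusted p = 0.864). Summed FPKM of the 4 overlapped, at 492 to 713 FPKM in ASO-Control and 433 to 554 FPKM in Mettl3-ASO. Among 4 assembly factors, Sdhaf3 rose from 21.0 ± 2.83 to 47.1 ± 20.3 FPKM (log2 fold change 1.10 ± 0.256, adjusted p = 0.00339) and Sdhaf2, which helps attach flavin to Sdha, fell from 26.0 ± 2.47 to 19.6 ± 3.26 FPKM (log2 fold change -0.46 ± 0.114, adjusted p = 0.00484).

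In complex III 4 of 9 genes fell and 3 rose (44.4% and 33.3%, against 24.0% and 25.4% of all tested genes). Those that fell encode the matrix-facing core proteins, cytochrome c1 and a small subunit, Uqcrb, and those that rose encode other small accessory subunits. Uqcrc1, a core protein, measured 205, 214, 162, 174 and 146 FPKM in ASO-Control and 138, 113, 90.2, 84.3 and 69.5 FPKM in Mettl3-ASO. No Mettl3-ASO library reached a control; the untagged libraries of both groups were higher than those of batch 2. Its log2 fold change was -0.93 ± 0.106 (adjusted p = 2.31e-05). Cyc1, cytochrome c1, which hands electrons to cytochrome c, measured 220.3, 168, 132, 162 and 114 FPKM in ASO-Control and 176, 117, 107, 92.1 and 66.4 FPKM in Mettl3-ASO. Ranges overlapped for Cyc1, also among the untagged libraries, where Mettl3-ASO replicate 1 lay above ASO-Control replicate 2; its log2 fold change was -0.58 ± 0.149 (adjusted p = 0.00612), with -0.65 within batch 2 and -0.46 within the untagged libraries. Uqcrc2, the other core protein, fell from 233 ± 35.7 to 164 ± 27.3 FPKM (-0.54 ± 0.145, adjusted p = 0.00844).

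Uqcr10, a small accessory subunit, measured 1638, 903, 1633, 1995 and 1472 FPKM in ASO-Control and 2601, 1674, 3085, 2560.2 and 3133 FPKM in Mettl3-ASO. Replicate 2 was the low library of both groups, and in Mettl3-ASO it was the only library under the highest control. Uqcrh, the acidic hinge protein that helps cytochrome c1 bind cytochrome c, measured 784, 689, 855, 750.0 and 758 FPKM in ASO-Control and 1012, 999, 1157, 1013 and 1299.7 FPKM in Mettl3-ASO, with no overlap. Uqcrq, another small subunit, measured 1124, 747, 1016, 1047 and 864 FPKM in ASO-Control and 1317, 1086, 1444, 1252 and 1422 FPKM in Mettl3-ASO, with an overlap of 1 library in each group. Log2 fold changes were 0.74 ± 0.142 (adjusted p = 0.000952), 0.49 ± 0.109 (adjusted p = 0.00269) and 0.41 ± 0.11 (adjusted p = 0.00745) for Uqcr10, Uqcrh and Uqcrq.

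Uqcrb, the most abundant of complex III, measured 2989, 3152, 3231, 2783 and 3163 FPKM in ASO-Control and 2591, 2834, 2485, 2391 and 2506 FPKM in Mettl3-ASO and fell a little (-0.29 ± 0.107, adjusted p = 0.0397). Of its transcript, 43.2% matches other annotated transcripts, which makes the value uncertain. Uqcrfs1, the least abundant, measured 211, 129.9, 91.2, 136 and 68.8 FPKM in ASO-Control and 181, 146, 112, 109 and 97.1 FPKM in Mettl3-ASO and was not called (0.00 ± 0.168, adjusted p = 0.987). Summed over the 9 genes, complex III gave 6772 to 8118 FPKM in ASO-Control and 7662 to 9482 FPKM in Mettl3-ASO, with a ratio of 1.14 and overlapping ranges. Its TPM sums narrowly did not overlap, at 7401 to 8451 TPM in ASO-Control and 8479 to 9637 TPM in Mettl3-ASO. Of 6 assembly factors, Lyrm7, which chaperones the Rieske protein, fell from 8.72 ± 2.36 to 1.95 ± 1.20 FPKM (log2 fold change -2.22 ± 0.397, adjusted p = 0.000604). Ttc19, which clears fragments of that protein, fell from 4.08 ± 0.945 to 2.95 ± 0.67 FPKM (log2 fold change -0.54 ± 0.203, adjusted p = 0.0404), and Bcs1l and Uqcc1 to Uqcc3 were not called. Cycs, cytochrome c itself, measured 305, 299, 340.2, 295 and 301 FPKM in ASO-Control and 331, 343, 404, 306 and 407 FPKM in Mettl3-ASO and was not called (0.18 ± 0.11, adjusted p = 0.205); 28.2% of its transcript matches processed copies.

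Complex IV had the smallest share called of the 5 (35.7%), with 3 of 14 tested genes lower and 2 higher. These are 21.4% and 14.3%, against 24.0% and 25.4% of all tested genes. The share called in complex I was close, at 40.5%, and over all tested genes it was 49.4%. Cox6a1, the subunit form found in most tissues, measured 1537, 1414, 1817, 1376 and 1398 FPKM in ASO-Control and 1281, 952, 1009, 899 and 1034 FPKM in Mettl3-ASO. No library crossed over, with Mettl3-ASO replicate 1 nearest to the controls, and the log2 fold change was -0.58 ± 0.111 (adjusted p = 0.000946). Cox5a, which contacts the catalytic core from the matrix, measured 2139.9, 2217, 2485, 2199 and 2239 FPKM in ASO-Control and 2041, 1757, 1991, 1933 and 2066 FPKM in Mettl3-ASO. Cox5a ranges also stayed apart, but its fall was small (-0.24 ± 0.0852, adjusted p = 0.0307). Cox5b, the zinc-binding subunit, fell from 675 ± 111 to 539.9 ± 71.4 FPKM (-0.36 ± 0.13, adjusted p = 0.0372), and 25.9% of its transcript matches a copy. Where both of these small falls missed the threshold, complex IV counted 1 gene lower, as under upper-quartile scaling, library totals, a mean of at least 5 FPKM, no batch term and batch 2 alone. Cox7c measured 2786, 2141, 2747, 2563 and 2335 FPKM in ASO-Control and 2978, 2868, 3275, 3041 and 3464 FPKM in Mettl3-ASO; its log2 fold change was 0.29 ± 0.0981 (adjusted p = 0.0257) with no overlap. Copies match 53.0% of its transcript, and 1 of them, Gm12338, held 86.2 FPKM in ASO-Control and 104 FPKM in Mettl3-ASO. Cox6c, the most abundant gene of the complex in ASO-Control, measured 2377, 2206, 3255, 2472 and 2990.1 FPKM in ASO-Control and 2361, 2442, 2467, 2366 and 3158 FPKM in Mettl3-ASO and was not called (-0.07 ± 0.128, adjusted p = 0.656).

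Isoforms of complex IV subunits that are known from single adult tissues were minor forms in morulae, and 1 of them rose. Cox8c, an isoform of Cox8a known chiefly from testis, measured 3.67, 1.53, 1.27, 0.50 and 0.87 FPKM in ASO-Control and 9.88, 10.3, 15.5, 11.3 and 5.80 FPKM in Mettl3-ASO. The lowest Mettl3-ASO library was above the highest control. Behind these levels stand 12, 5, 9, 4 and 7 counts in ASO-Control and 35, 28, 106, 75 and 32 in Mettl3-ASO. Its log2 fold change was 2.92 ± 0.501 (adjusted p = 0.000455), or 7.56-fold higher, with 3.58 in batch 2 and 1.93 in the untagged libraries. It still made only 0.825% of the Cox8 sum (0.122% in ASO-Control), since Cox8a stood at 1216 and 1282 FPKM in the 2 groups and was not called (0.05 ± 0.119, adjusted p = 0.763). Cox8b, the muscle form, had no count in any library.

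Cox7b2, another testis-type form, measured 44.5, 34.4, 10.7, 29.6 and 41.6 FPKM in ASO-Control and 62.6, 54.5, 53.9, 50.9 and 47.3 FPKM in Mettl3-ASO. All 5 Mettl3-ASO libraries were higher than all controls, yet the gene just missed the threshold (0.73 ± 0.288, adjusted p = 0.0515), and it was called under 10 of 22 other settings. Control replicate 3 was the low one at 10.7 FPKM, and without it the log2 fold change of Cox7b2 was 0.50. Its share of the Cox7b and Cox7b2 sum was 11.4% ± 4.62 in ASO-Control and 17.1% ± 0.75 in Mettl3-ASO (SD, n = 5), with overlapping ranges. Cox7b was not called (0.04 ± 0.107, adjusted p = 0.757). Cox7a1, the heart and muscle form, took 9.22% ± 1.86 of the Cox7a1, Cox7a2 and Cox7a2l sum in ASO-Control and 10.5% ± 1.82 in Mettl3-ASO, and none of these 3 was called. Cox6b2, a testis form, measured 15.1 and 13.6 FPKM beside 1696 and 1697 FPKM of Cox6b1, with no call for either. Cox4i2, the form known from lung and hypoxia, had 1, 1, 1, 11 and 4 counts in ASO-Control and 4, 4, 8, 9 and 21 in Mettl3-ASO and was not tested, and Cox6a2, the muscle form, had 0 to 5 counts a library. Cox4i1 stood at 1827 and 1558 FPKM and was not called (-0.27 ± 0.133, adjusted p = 0.113).

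Of 25 assembly factors of complex IV, 4 fell and 6 rose. These are 16% and 24% of them, against 24.0% and 25.4% of all tested genes. Sco2, which delivers copper to the oxidase, rose from 2.45 ± 1.03 to 13.3 ± 6.14 FPKM (log2 fold change 2.41 ± 0.26, adjusted p = 1.62e-05), and its relative Sco1 was not called (-0.07). Also higher were Cox19 (0.62), Cmc1 (0.62), Higd2a (0.52), Cox14 (0.39) and Taco1 (0.75), an activator of mitochondrial translation. Lower were Lrpprc (-0.75), which stabilizes mitochondrial mRNAs, Pet100 (-0.74), Cox16 (-0.61) and Coa5 (-0.38). Numbers in parentheses are log2 fold changes, and 15 of the 25 were not called.

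In complex V the falls centred on F1, the part that makes ATP: 4 of its 5 genes fell (80%). Over the complex 7 of 15 fell and 2 rose (46.7% and 13.3%, against 24.0% and 25.4% of all tested genes). Atp5b, the catalytic beta subunit, measured 713, 775, 645, 582 and 645 FPKM in ASO-Control and 459, 439, 334, 308 and 278 FPKM in Mettl3-ASO. Atp5d, the delta subunit of the central stalk, measured 451, 445, 367, 325 and 343 FPKM in ASO-Control and 289, 222, 214, 178 and 174 FPKM in Mettl3-ASO. Neither gene had an overlap, and within each group the untagged libraries were higher than batch 2. Log2 fold changes were -0.95 ± 0.103 (adjusted p = 1.68e-05) and -0.89 ± 0.101 (adjusted p = 2.29e-05), 1.93-fold and 1.85-fold lower. The alpha subunit, Atp5a1, measured 359.8, 288, 177, 202 and 196 FPKM in ASO-Control and 292, 202, 132, 127 and 127 FPKM in Mettl3-ASO; its ranges overlapped through the untagged libraries, and the log2 fold change was -0.55 ± 0.101 (adjusted p = 0.000721), with -0.61 in batch 2 and -0.45 in the untagged libraries. Atp5c1, the gamma shaft, fell (-0.35 ± 0.0989, adjusted p = 0.0104), and Atp5e, the epsilon subunit, varied widely and was not called (165 to 887 FPKM among the controls; -0.62 ± 0.32, adjusted p = 0.124). Summed FPKM of the 5 was 2133 to 2698 FPKM in ASO-Control and 1349 to 1797 FPKM in Mettl3-ASO, with no overlap and a ratio of 0.651.

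In the membrane part, 3 genes encode the same mature c subunit of the rotor ring, and they differed. Atp5g2, the scarcest, measured 348, 287, 351, 312 and 331 FPKM in ASO-Control and 271, 190.5, 209, 181 and 159 FPKM in Mettl3-ASO. Every Mettl3-ASO library lay under every control (-0.74 ± 0.126, adjusted p = 0.000417), and its share of the Atp5g sum went from 8.47% ± 0.66 to 5.79% ± 1.28 (SD, n = 5), where the highest Mettl3-ASO share, 7.92%, exceeded the lowest control share, 7.31%. Atp5g1 (1979 against 1883 FPKM; -0.11 ± 0.10, adjusted p = 0.381) and Atp5g3 (1542 against 1408 FPKM; -0.15 ± 0.0986, adjusted p = 0.226) were not called. Since 87.4% of the Atp5g2 transcript, read in windows of 50 bases, also occurs in annotated copies (Gm10175 and Gm10231), its level is uncertain. The ring sum gave 3559 to 3986 FPKM in ASO-Control and 3419 to 3553 FPKM in Mettl3-ASO (ratio 0.908), ranges that just missed each other, and in TPM, where every library has the same sum, they overlapped at 3628 to 4321 TPM in ASO-Control and 3489 to 3954 TPM in Mettl3-ASO.

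The stalk and membrane genes went both ways, 2 lower and 2 higher of 7 (28.6% each, against 24.0% and 25.4% of all tested genes). Atp5h, the d subunit of the outer stalk, measured 1992, 2128, 2355, 1925 and 2209 FPKM in ASO-Control and 1401, 1283, 1631, 1508 and 1536 FPKM in Mettl3-ASO. It had no overlap and a log2 fold change of -0.57 ± 0.0989 (adjusted p = 0.000512); 50.5% of its transcript matches copies. Atp5f1, the b subunit, fell slightly (-0.32 ± 0.113, adjusted p = 0.0315). Other annotated transcripts match 23.2% of the Atp5f1 transcript, so its level is uncertain. Atp5j, coupling factor 6 and the most abundant gene of the whole set, measured 3078, 2895, 3573, 3347 and 3470.0 FPKM in ASO-Control and 3853, 3858, 4938, 4445 and 4722 FPKM in Mettl3-ASO. Every Mettl3-ASO library exceeded every control, and batch 2 was higher than untagged in both groups; the log2 fold change of Atp5j was 0.38 ± 0.0875 (adjusted p = 0.00326), and without the batch term the adjusted p was 0.0825. Atp5k, the e subunit, which takes part in pairing ATP synthases, measured 1439.5, 1018, 1321, 1450.2 and 1146 FPKM in ASO-Control and 1554, 1266, 1801, 1665 and 1634 FPKM in Mettl3-ASO and rose slightly (0.29 ± 0.106, adjusted p = 0.036). Atp5o, Atp5l and Atp5j2 were not called.

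**Figure D4:**
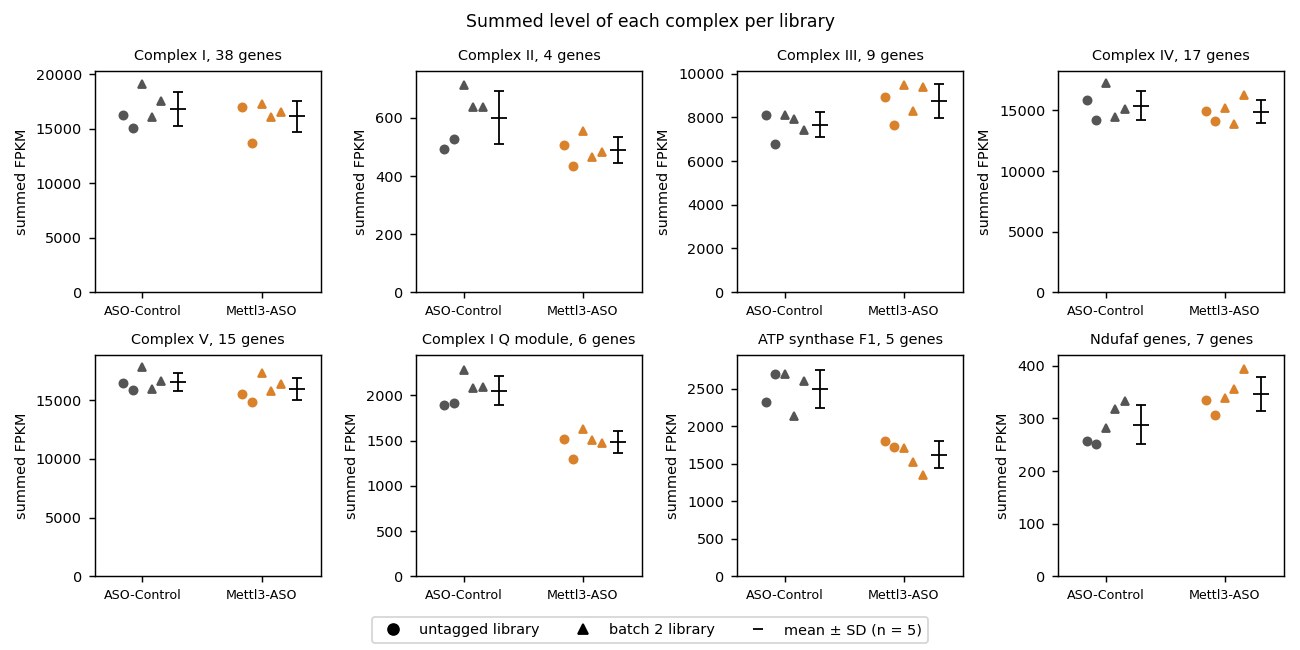
Summed FPKM per library of the genes of each complex, with the Q module of complex I, F1 of complex V and the Ndufaf genes apart; circles are untagged libraries, triangles batch 2, bars mean ± SD over 5 libraries, and each vertical axis starts at 0. The Q module and F1 panels show groups that do not overlap, while complexes I, II, III, IV and V and the Ndufaf genes overlap in FPKM; in TPM, complex III and the Ndufaf genes do not.

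Around ATP synthase, Tmem70, a factor for assembly of the c ring, rose from 139 ± 19.2 to 291 ± 49.4 FPKM (log2 fold change 1.02 ± 0.137, adjusted p = 7.89e-05), and Atpif1, the inhibitor that stops the enzyme from running backward, fell from 228 ± 22.4 to 192 ± 34.6 FPKM (log2 fold change -0.30 ± 0.111, adjusted p = 0.0396). The other 5 genes of that list were not called. The carriers that bring ADP and phosphate to the enzyme all fell, 4 of 4 (100%, against 24.0% of all tested genes). Slc25a5, the main ADP/ATP exchanger here by level, fell from 1203 ± 97.8 to 747 ± 163 FPKM (log2 fold change -0.74 ± 0.124, adjusted p = 0.000393), Slc25a4 from 295 ± 131 to 168 ± 81.6 FPKM (log2 fold change -0.89 ± 0.16, adjusted p = 0.00066) and the scarce Slc25a31 from 3.25 ± 0.818 to 1.41 ± 0.502 FPKM (log2 fold change -1.23 ± 0.319, adjusted p = 0.00663). The phosphate carrier Slc25a3 fell from 485 ± 34.5 to 358 ± 46.9 FPKM (log2 fold change -0.48 ± 0.111, adjusted p = 0.00334). Of 10 regulators of these genes, 7 were tested and 2 were called, both higher (28.6% of the 7, against 25.4% of all tested genes). Yy1 rose from 34.0 ± 4.25 to 75.8 ± 13.9 FPKM (log2 fold change 1.11 ± 0.138, adjusted p = 4.35e-05). Pprc1, a coactivator related to Ppargc1a, rose from 5.62 ± 1.36 to 11.5 ± 2.42 FPKM (log2 fold change 0.99 ± 0.185, adjusted p = 0.000819). Nrf1 (-0.18), Gabpa (-0.31), Gabpb1 (-0.16), Tfam (-0.16) and Tfb2m (0.46) were not called (log2 fold changes in parentheses), and Ppargc1a was listed at 0 in all libraries.

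Of the 3 further factors caught by the name pattern, 1 was called. Atp5s, factor B of ATP synthase, fell from 25.9 ± 7.15 to 20.2 ± 7.41 FPKM (-0.44 ± 0.149, adjusted p = 0.0272). Cox7a2l, which joins complexes III and IV into supercomplexes, measured 175, 139, 120.0, 174 and 110.2 FPKM in ASO-Control and 153, 154, 153, 132 and 120.2 FPKM in Mettl3-ASO and was not called (-0.05 ± 0.135, adjusted p = 0.795), nor was Atp5sl (-0.19 ± 0.211, adjusted p = 0.479).

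Most falls among the subunits lay in genes with longer transcripts, a property that the choice of genes did not use. The split that follows was chosen after the values were seen and is a description with no test. Among the 80 tested subunit genes (Cycs included, Ndufaf genes and other factors left out), 37 had transcripts under 600 bases, of which 6 were lower, 8 higher and 23 not called, with a median log2 fold change of 0.01. The other 43, of 600 bases or more, had 24 lower, 0 higher and 19 not called, with a median of -0.34. In batch 2 the 2 medians were 0.02 and -0.37, and in the untagged libraries 0.04 and -0.29. Over all tested genes, 19.0% of the 316 short ones were lower and 27.5% higher, and 24.2% of the 9206 longer ones were lower and 25.3% higher.

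By complex, the genes of 600 bases or more were lower in 12 of 21 for complex I, 2 of 4 for complex II, 3 of 4 for complex III, 1 of 4 for complex IV and 6 of 9 for complex V. Spearman's rho of length with log2 fold change was -0.52 over the 80 genes (-0.53 in batch 2 and -0.49 in the untagged libraries) and 0.01 over all 9522 genes. With assembly factors it was -0.35 over 90 genes, and the higher Ndufaf genes include long ones such as Ndufaf4 at 3632 bases. All points share the same libraries. Short subunit genes are also the more abundant ones; rho of the control FPKM with log2 fold change was 0.28 over the 80 genes and -0.35 over all genes. Mitochondrial ribosomal protein genes, which work in the same organelle, had 25 lower and 14 higher of 77. Their rho of length with log2 fold change was -0.02. By the same split, the 8 of them under 600 bases had 0 lower and 1 higher, with a median log2 fold change of 0.06. The 69 of 600 bases or more had 25 lower and 13 higher, with a median of -0.14. The effective length that RSEM used changed between groups by a ratio of 0.992 to 1.11 for the genes of the set.

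**Figure D5:**
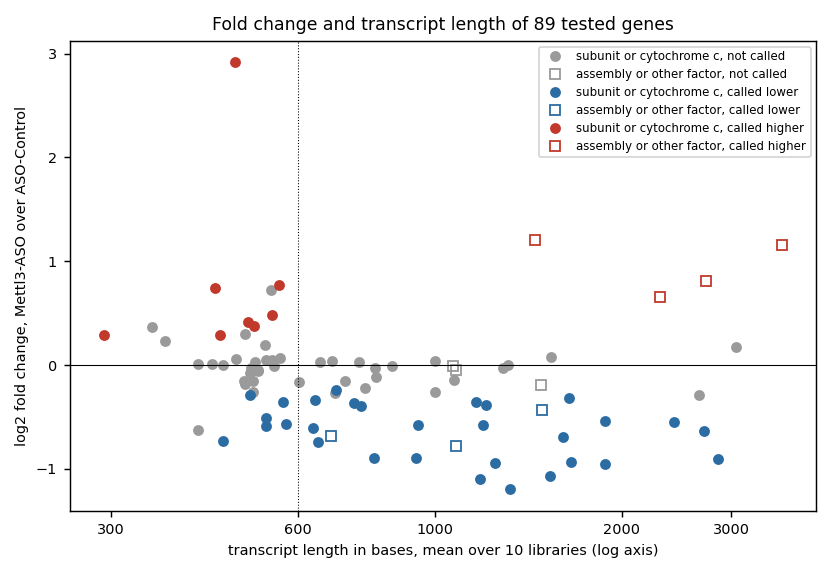
Log2 fold change of 89 tested genes against transcript length in bases (log axis, mean over 10 libraries), with filled circles for subunits and cytochrome c and open squares for assembly and other factors. The dotted line marks 600 bases; right of it lie 24 blue (lower) and no red (higher) circles, while 4 red squares there are Ndufaf genes.

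The sequence GGACT, a common context of N6-methyladenosine, was counted in the longest matched GENCODE transcript of each gene, on the transcript's own strand. Its median number per kilobase was 0.658 in the 33 genes that were lower, 0.275 in the 12 that were higher and 1.10 in the 45 not called. Over all tested genes the medians were 0.981, 1.06 and 1.02, in the same order. Few matches stand behind the values of the set, whose median number per gene was 1 in the lower genes, 0.5 in the higher and 1 in those not called. For some genes the counted transcript was longer than the deposited mean length, as for Uqcrq with 1521 against 499 bases. Methylation itself was not measured. The cytosolic ribosomal protein genes, another set of short and abundant mRNAs, had 60 of 86 lower and 3 higher, against 33 and 12 of 90 here.

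Positions of the genes with full values are in build GRCm38 from the GENCODE annotation. Ndufa9 lies at chr6:126821721-126849136, minus strand, Ndufs4 at chr13:114287795-114388258, minus strand, and Ndufa6 at chr15:82350140-82354322, minus strand. Ndufaf1 lies at chr2:119655446-119662827, minus strand, and Ndufaf4 at chr4:24898083-24905001, plus strand. Sdhc is at chr1:171127165-171150603, minus strand, Sdha at chr13:74322254-74350280, minus strand, Uqcrc1 at chr9:108936633-108949623, plus strand, and Uqcr10 at chr11:4701973-4704342, minus strand. Cox8c is at chr12:102899316-102900526, plus strand, Cox6a1 at chr5:115345642-115348981, minus strand, Atp5b at chr10:128083273-128090391, plus strand, and Atp5j at chr16:84827866-84835625, minus strand. Values are for whole genes, all transcripts together, so exons and UTRs were not told apart.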

How the data were processed

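RNA was measured in 10 libraries of mouse morulae, 5 ASO-Control and 5 Mettl3-ASO. Per the labels' protocols, libraries were made from polyA RNA using SMART-Seq v4 PLUS. The submitters' processing notes name STAR 2.7.10, RSEM 1.3.3 and mm10; roles, options, annotation release and any use of strand are not given in the sources used here. For each library the authors deposited 1 RSEM gene table of 24411 genes. The deposited expected counts are, per the file headers, estimates of the reads of each gene that need not be whole; RSEM in general shares out reads that match several genes. The deposited FPKM values are scaled by transcript length and fragment number, and the deposited TPM values to a common sum per library. Length and effective length, also deposited, are means over transcripts, per the file headers. FPKM of genes with near-identical copies depends on how reads were shared out.

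Expected counts were rounded and tested with edgeR 4.0.16 (quasi-likelihood, R 4.3.3, TMM scaling, terms for batch and group) over 9522 genes, those whose FPKM averaged 1 or more. Adjusted p-values come from this test by the Benjamini-Hochberg method across all of these genes, a gene is called under 0.05 with no fold limit, and ± after a log2 fold change is its SE, the log2 fold change over the root of the F statistic. DESeq2 1.42.0 and limma 3.58.1 on log2(FPKM + 1) or log2(FPKM + 0.1) were alternatives, with other scalings, filters, models and subsets of libraries. The fit was also run on simulated counts. These had no batch effect and far fewer changed genes than the data, so that run cannot show how the fit behaves here. No p was computed for sums, shares or lists. The members and lists were chosen with earlier results of these data known. Full values are given for the 4 called genes with the smallest p in each complex, every gene called higher, Cyc1, Cycs, paralog groups and the most and least abundant gene of each complex; other genes were named after their values were seen. Shared sequence is the share of a transcript's 50-base windows found in another gene's annotated transcript, and limits of 20% mark genes called uncertain. Positions are from GENCODE M21 (GRCm38), matched by RefSeq accession. The labels name no molecular identifiers, so a count is of reads and not of molecules. Mitochondrially encoded subunits were not analysed here, and 1 complex I gene, counted in the totals and sums, is not reported by name or plotted.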

Additional observations from a re-analysis of the deposited data

Results flagged for a closer look

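In 88 groups of 5 libraries (44 named genes with levels in both groups), 6 held a library whose gap to its nearest neighbour was over 0.710 of the group's range; chance gives about 1 in 20 such groups. Each is given as a value. Cox5a stood at 2485 FPKM in ASO-Control replicate 3, where the other 4 controls held 2140 to 2239 FPKM. Cycs stood at 340.2 FPKM in the same library, against 295 to 305 FPKM. Cox6c stood at 3158 FPKM in Mettl3-ASO replicate 5, against 2361 to 2467 FPKM in the other 4. Mettl3-ASO replicate 2 was low for Cox7a1, at 66.2 FPKM against 105 to 109 FPKM, and for Ndufa6, at 602 FPKM against 824 to 913 FPKM. Ndufaf7 was low in Mettl3-ASO replicate 1, at 42.2 FPKM against 58.9 to 65.2 FPKM.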

How the results depend on the processing

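Beside the values reported, 22 other settings were run. No gene changed sign among the 45 called, except that Ndufaf5 was not tested at a mean FPKM of at least 5. With the untagged libraries alone, 1 gene was called lower and 1 higher; by complex 1 (I) and 0 (II, III, IV and V) were lower and 0 (I, III, IV and V) higher, and the cause was not tested beyond the smaller number of libraries. Complex IV counted 1 lower in place of 3 with upper-quartile scaling, library totals only, a mean FPKM of at least 5, no batch term and batch 2 alone. Complex I counted 2 higher in place of 1 with upper-quartile scaling, library totals only, DESeq2 and limma at either pseudocount, and 3 with a mean FPKM of at least 5. Complex IV counted 1 higher in place of 2 with no batch term, and complex V counted 1 with no filter and 0 with no batch term, in place of 2; the cause was not tested. Leaving out 1 library at a time gave 26 to 32 genes lower and 10 to 13 higher in all. Of all tested genes, 21.2% to 24.6% were then lower and 22.7% to 25.8% higher. By complex it gave 1 to 3 lower and 1 to 3 higher in complex IV, 1 to 2 higher in complex I and 1 to 2 higher in complex V. Medians moved by less than their spread over libraries, and scaling shifted the median of all genes by at most 0.07.

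Replicate numbers 1 to 5 occur in both groups. After group and batch means were removed, libraries with the same number correlated at 0.252, 0.252, 0.168, 0.129 and 0.083. Each group has only 2 untagged libraries, so the values for replicates 1 and 2 are not independent of each other. Not every pair passed 0.1, and the libraries were taken to share only a number, although each control library correlated best with its own number within its batch. With the replicate block, 36 genes were lower and 15 higher, complex I counting 3 higher, where 27.5% of all genes were lower and 27.6% higher. Depth limits Cox8c, with 4 to 12 counts per control library, and leaves Cox4i2, Cox6a2, Cox8b and Ndufa4l2 untested.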

Other observations

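Atp5j and Gabpa overlap at their 5′ ends on opposite strands of chromosome 16, and exons of Gabpa cover 12.7% of the exon bases of Atp5j. Atp5j rose in Mettl3-ASO (log2 fold change 0.38 ± 0.0875, adjusted p = 0.00326), while Gabpa, the DNA-binding subunit of the NRF2/GABP factor, measured 44.4 ± 8.60 FPKM in ASO-Control and 36.4 ± 4.05 FPKM in Mettl3-ASO (SD, n = 5) and was not called (-0.31, adjusted p = 0.0943). The difference between the neighbours was not tested.

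Ndufs5 of complex I differed between batches, at 79.5 to 124 FPKM in the untagged controls and 194 to 246 FPKM in the controls of batch 2. Its annotated copy BC002163 held 1275 FPKM in ASO-Control and 1375 FPKM in Mettl3-ASO, far above Ndufs5 itself (174 and 155 FPKM), and 41.2% of its transcript matches that copy, so its level is uncertain. Uqcc3, an assembly factor of complex III, varied as widely, from 45.4 to 182 FPKM among the controls, and was not called.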
